A study of Homo sapiens with 2 samples.

Results

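Coagulation factors, complement proteins and acute-phase proteins are made mainly by hepatocytes and secreted into plasma. Their transcripts were compared between 2 cultures of the human hepatocellular carcinoma line PLC8024, a control and one given the microRNA miR-130b. The group was set by a list of 54 genes for plasma proteins of the liver and some of their membrane-bound partners, with serpins, albumins and apolipoproteins left out. A listed gene was taken up when the platform annotation gave a probe set that symbol and no other. That held for 53 of the 54, out of 19775 genes with such a probe set on the array, and the 53 had 107 probe sets. The complement regulator VTN had no probe set of its own and was given no expression value here.

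In both conditions the cells were PLC8024 cells that had been sorted by flow cytometry as CD133-, that is, without the surface marker encoded by PROM1. One culture was transduced with a lentivirus carrying miR-130b and the other with an empty lentiviral vector (EV). The source label of the first sample calls this a transfection, whereas the treatment protocol and the series design describe lentiviral transduction. Each condition has 1 array, so there is no replicate, nothing was tested, and every difference below is between these 2 arrays. The vector cannot be told apart from anything else that separated the cultures. RNA came from whole cultures of 1 cell line, and in such bulk RNA fewer expressing cells and less RNA per cell cannot be told apart.

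Blood clotting proceeds through serine protease zymogens that activate one another until thrombin cleaves fibrinogen into fibrin, and protein C, protein S and TFPI restrain the process. Complement is a second protease cascade in plasma, started by antibody, by sugar-binding lectins or spontaneously, and host cells carry CD46, CD55 and CD59 to limit it. During inflammation interleukin-6 and related cytokines raise the hepatic output of many of these proteins, and of hepcidin (HAMP), the hormone that blocks iron export from cells.

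The microRNA that was overexpressed acts by pairing its seed, bases 2 to 8, with target transcripts. The labels do not say which arm of the hairpin was followed, so both mature arms are given, from RefSeq (GRCh38.p14), with the seed in capitals. The 3p arm lies at chr22:21653354-21653375 and the 5p arm at chr22:21653316-21653336, both on the plus strand.
hsa-miR-130b-3p: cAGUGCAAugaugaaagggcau
hsa-miR-130b-5p: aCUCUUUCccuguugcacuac

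Values are log2 expression values from RMA (robust multi-array averaging), and each difference is miR-130b minus EV on that scale. A probe set was called measured when its brighter array reached 4.88, the median of all non-control values, and the measured probe set of highest mean stood for its gene. Of the 53 genes, 44 were measured and 9 were not. In 42 of the 44 both arrays were at or above that floor, while HAMP and F8 passed through the EV array alone and no gene through the miR-130b array alone. The only error these data offer is technical. Over 6047 genes with several measured probe sets, differences of probe sets of the same gene had a pooled SD of 0.202, and it holds no variation between cultures.

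Most transcripts of this group had nearly the same value in both arrays, with HAMP as the main exception. HAMP was 9.34-fold lower with miR-130b on the deposited values. Its miR-130b value lies below the floor, and its EV value was 8.03-fold above the floor itself. MASP1, a protease of the lectin pathway of complement, was 1.87-fold lower. These 2 of 44 measured genes (4.55%) were at least 1.5-fold lower, against a background of 2.68% of the 13260 measured genes of the array. None was at least 1.5-fold higher, against a background of 0.294%. HAMP alone was at least 2-fold lower, where the background was 1.52%. None was at least 2-fold higher, and none of the 13260 genes was, a background of 0%. The median difference of the 44 was -0.01, beside 0.03 for all measured genes. Of the 44, 35 (79.5%) differed by no more than the SD of 0.202, which held for 72% of all measured genes. Beyond that SD lay 8 lower genes and 1 higher one, LBP. With so few genes past 1.5-fold, the shares of the group and of the array cannot be read as different.

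**Figure D1:**
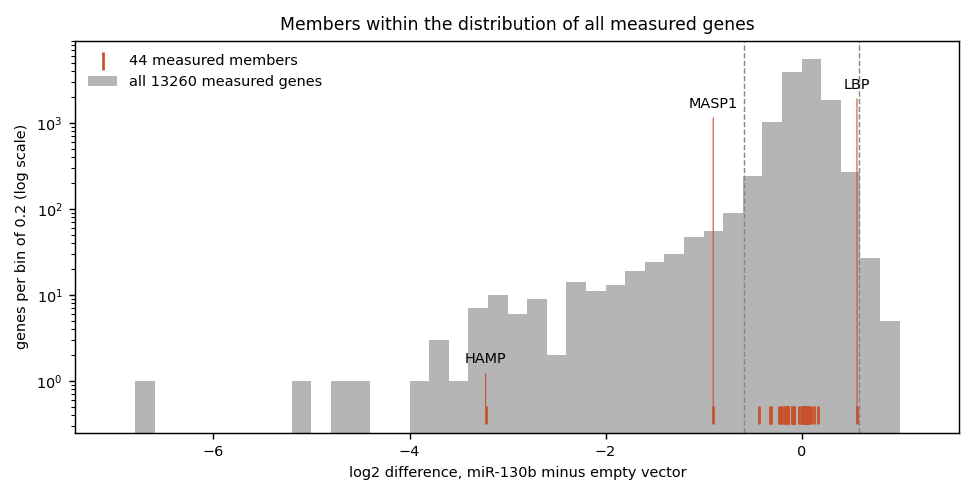
Grey bars count all 13260 measured genes by their log2 difference (miR-130b minus EV, 1 array each) in bins of 0.2 on a log axis, orange ticks mark the 44 measured genes of the plasma protein group, and dashed lines stand at 1.5-fold. HAMP lies in the far left tail at -3.22, MASP1 lies at -0.90, LBP lies just inside the right line at 0.56, and the other ticks crowd around 0.

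Among the coagulation factors, 13 of 15 were measured and 0 were beyond 1.5-fold in either direction. Their median difference was 0.01. Fibrinogen, the precursor of fibrin, is assembled from the products of FGA, FGB and FGG, which neighbour each other on chromosome 4. FGG had 13.72 in the EV array and 13.76 in the miR-130b array. FGB had 13.44 and 13.45 in one probe set and 13.08 and 13.13 in the other. FGA had 13.69 and 13.75 in its brightest probe set, 11.86 and 12.18 in the next and 7.28 and 7.39 in the dimmest. All 6 fibrinogen probe sets were level with or slightly above the control, by 0.01 to 0.31. The liver-secreted fibrinogen-like gene FGL1 had 9.48 in the EV array and 9.53 in the miR-130b array.

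Prothrombin (F2) is cleaved to thrombin, the protease that makes fibrin, and it had 10.34 in the EV array and 10.32 in the miR-130b array. F12, which starts the contact pathway, had 9.60 and 9.66. KNG1, which encodes the kininogens of that pathway, had 10.18 and 10.28, with 7.75 and 8.02 in a dimmer probe set. These contact-pathway values were level or slightly higher with miR-130b. F11, the factor downstream of F12, stood at 5.16 in both arrays.

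The factors of the tissue factor pathway moved by small amounts in both directions. Tissue factor itself (F3), the membrane receptor that triggers clotting, had 6.55 in the EV array and 6.72 in the miR-130b array. F7, its protease partner, had 7.62 and 7.46, with 5.75 in both arrays in a dimmer probe set. F10, whose active form cleaves prothrombin, showed the lowest difference of the coagulation factors, -0.32, with 6.70 and 6.37 in its single probe set. F7 and F10 neighbour each other on chromosome 13. The cofactor gene F5 had 7.43 and 7.36 in one probe set but 5.84 and 5.98 in another, so its sign was not settled. F8, the cofactor lacking in haemophilia A, stood close to the floor, at 5.03 and 4.82.

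The anticoagulant and fibrinolytic genes, with 4 of 5 measured, had a median of 0.02 and none beyond 1.5-fold by the brightest probe set. PROS1, which encodes protein S, had 9.11 in the EV array and 9.15 in the miR-130b array. PROC, which encodes the protein C that it assists, had 7.91 and 7.68, a difference of -0.23. TFPI, the inhibitor of the tissue factor complex, had 11 and 11.05 in its brightest probe set. Its 3 next probe sets were higher by 0.14 to 0.16, and 1 at the floor differed by -0.12.

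PLG, the precursor of the clot-dissolving protease plasmin, was the gene of the group whose probe sets disagreed most. Probe set 240033_at stood at 5.44 in both arrays, while 209977_at had 5.22 in the EV array and 4.28 in the miR-130b array. The spread between them was 0.95, against a median spread of 0.27 over the 19 genes with several measured probe sets. A further PLG probe set below the floor differed by -0.11. Whether PLG differed between the cultures is therefore not settled by these values.

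**Figure D2:**
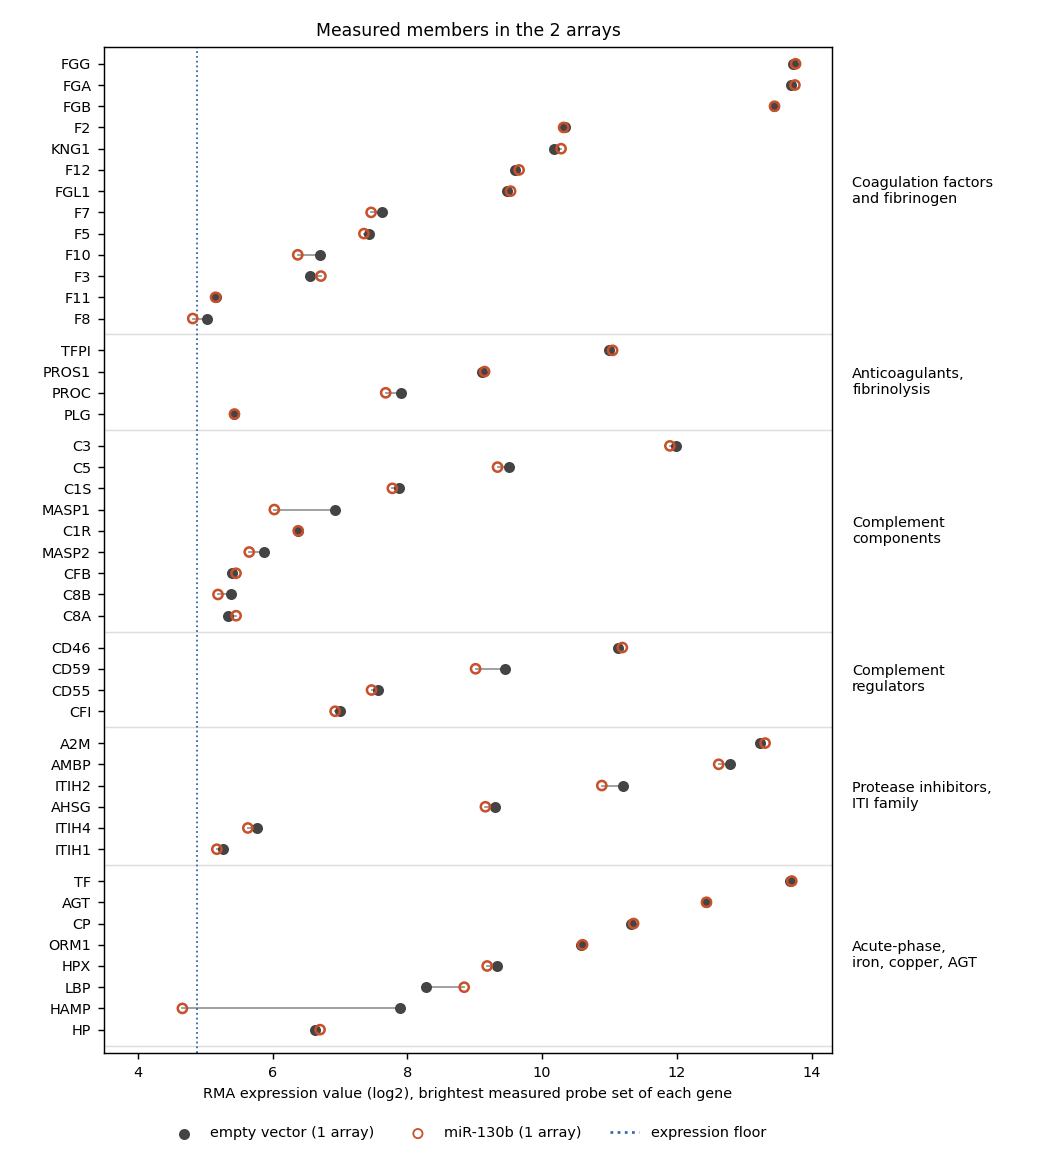
Log2 expression values of the brightest measured probe set of each of the 44 measured genes, by role and, within a role, by EV value (EV, filled; miR-130b, open; 1 array each; dotted line, floor of 4.88). Most pairs overlap, from F11 near the floor to FGG at 13.72 and 13.76, whereas HAMP runs from 7.89 to 4.66 and crosses the floor; levels of different genes are not comparable on arrays.

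Among complement components, 9 of 12 were measured, with a median of -0.10. Of the 9, 1 (11.1%) was at least 1.5-fold lower and 0 were higher, beside 2.68% and 0.294% of the array. MASP1 was lower in both of its measured probe sets. Probe set 213749_at had 6.93 in the EV array and 6.03 in the miR-130b array, and 232224_at had 6.83 and 5.56, a difference of -1.27. Both differences exceed the SD between probe sets. The other 3 MASP1 probe sets lay below the floor in both arrays, with differences of -0.14, -0.45 and 0.08. MASP1 gives several proteins by alternative splicing, and the positions of the probes were not used here. MASP2, the lectin-pathway protease that cleaves C4 and C2, had 5.87 and 5.65, a difference of -0.21.

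C3, the central component on which all complement pathways converge, had 11.98 in the EV array and 11.90 in the miR-130b array. C5, cleaved to start the membrane attack complex, had 9.51 and 9.34. Both were slightly lower, by less than the SD between probe sets. The proteases of the classical pathway are encoded by the neighbouring genes C1R and C1S on chromosome 12. C1S had 7.88 and 7.78, and C1R had 6.38 in both arrays. CFB, the protease component of the alternative pathway, had 5.40 and 5.46 in one probe set and 5.22 and 4.96 in the other. Of the membrane attack complex, C8A had 5.34 and 5.46 and its chromosomal neighbour C8B had 5.39 and 5.19. C6, C7 and C9 were below the floor.

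Complement regulators, with 4 of 5 measured, had a median of -0.09 and none beyond 1.5-fold. CD59, a membrane protein that blocks the last step of the attack complex, was lower in 3 of 4 measured probe sets. Its brightest probe set had 9.45 in the EV array and 9.01 in the miR-130b array, and the 2 next differed by -0.25 and -0.27. Those 3 carry a suffix that marks probes shared with other transcripts or variants, and 212463_at, without such a suffix, differed by 0.06. CD46, a cofactor for the cleavage of C3b, had 11.12 and 11.19 in its brightest probe set, and all 3 of its probe sets lay within 0.07 of 0. CD55, which dissociates the C3 convertases, had 7.56 and 7.47, with -0.21 and 0.18 in its other probe sets. CFI, the plasma protease that degrades C3b, had 7.0 and 6.93 in one probe set and 6.73 and 6.30 in the other, a difference of -0.43.

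Among protease inhibitors and the inter-alpha-trypsin inhibitor family, 6 of 8 were measured and 0 were beyond 1.5-fold, with a median of -0.14. A2M, the broad-range inhibitor alpha-2-macroglobulin, had 13.23 in the EV array and 13.31 in the miR-130b array. AMBP, whose product is cut into alpha-1-microglobulin and the inhibitor bikunin, had 12.79 and 12.62, while a dimmer probe set had 6.27 and 6.45. ITIH2, a heavy chain that binds bikunin, had 11.20 and 10.88, a difference of -0.31 that exceeds the SD between probe sets. The other heavy-chain genes ITIH1 and ITIH4 differed by -0.10 and -0.14. AHSG, which encodes fetuin-A, a plasma inhibitor of calcification, was lower by little in both probe sets, with 9.30 and 9.16 and with 7.75 and 7.55.

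Of the acute-phase proteins, carriers and the angiotensin precursor, 8 of 9 were measured. Without HAMP, the other 7 were all within 1.5-fold. TF, the iron carrier transferrin, had 13.67 in the EV array and 13.70 in the miR-130b array, and its 2 other measured probe sets were higher by 0.18 and 0.17. CP, the copper-carrying ferroxidase ceruloplasmin, had 11.32 and 11.36 in its brightest probe set, and its 3 others differed by 0.07, 0.23 and -0.05. The haemoglobin scavenger HP had 6.63 and 6.71, and the haem scavenger HPX had 9.33 and 9.18 in one probe set and 8.65 and 8.55 in the other. Each of these carriers of iron, copper and haem had nearly the same value in both arrays.

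ORM1, the acute-phase carrier orosomucoid, had 10.58 in the EV array and 10.60 in the miR-130b array, and AGT, the precursor of angiotensin, had 12.43 and 12.44. LBP, which presents bacterial lipopolysaccharide to immune receptors, was the highest of the 44 genes. Probe set 214461_at had 8.28 and 8.84, a difference of 0.56 or 1.48-fold, just short of 1.5-fold. The second LBP probe set had 8.14 and 8.34, a difference of 0.20, at the SD between probe sets. LBP ranked 50 from the top among the 13260 measured genes.

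**Figure D3:**
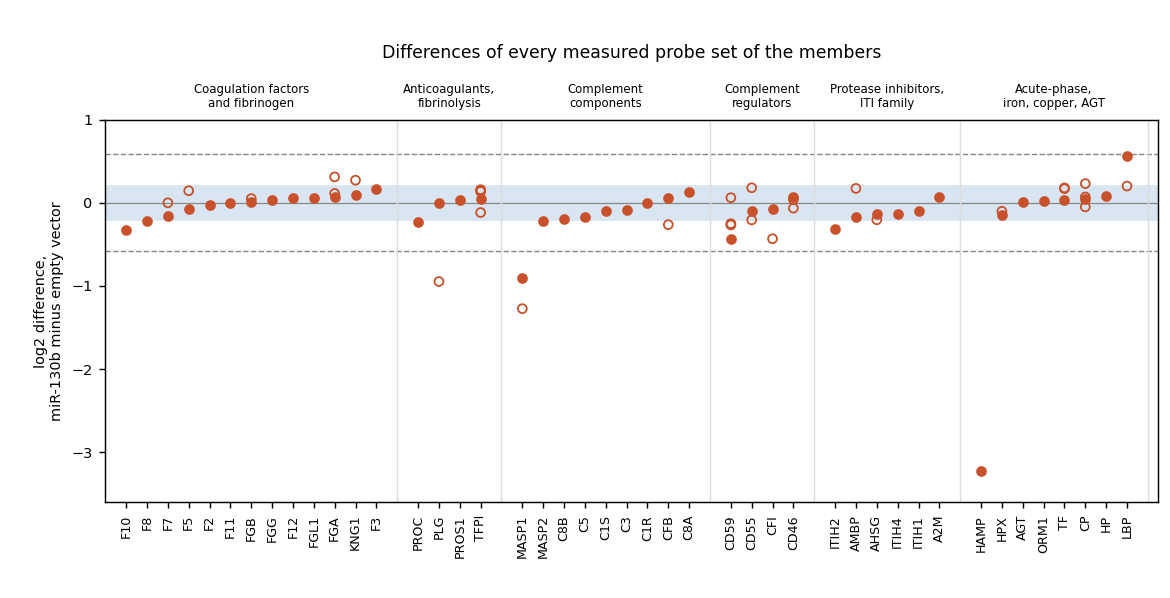
Log2 differences (miR-130b minus EV, 1 array each) of all 74 measured probe sets of the group, by role; filled circles are the probe set that represents the gene, open circles its other measured ones, the blue band spans 1 SD between probe sets of a gene (0.202) either side of 0, and dashed lines mark 1.5-fold. Only HAMP, both MASP1 probe sets and 1 of the PLG probe sets lie below the lower line, and none lies above the upper one.

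Counted by probe set, 74 of the 107 were measured. At least 1.5-fold lower were 4 of these (5.41%), and 0 were higher, against 2.83% and 0.33% of the 23352 measured probe sets of the array with 1 gene symbol. The 4 were HAMP, both of MASP1 and 1 of PLG. The HAMP and PLG probe sets among them passed the floor through the EV array alone, and both MASP1 probe sets report the same gene. With so few probe sets, the shares of the group and of the array cannot be read as different. Among the 19 genes with several measured probe sets, 9 had all of them on the same side of 0. The other 25 genes rest on 1 probe set, HAMP among them. The 9 genes below the floor, F9, F13B, HRG, C6, C7, C9, FETUB, ITIH3 and CRP, had 14 probe sets, with values from 3.25 to 4.78 and differences from -0.40 to 0.17. At such levels RMA values are largely residual background, so they set no level for these genes. In 30 of the 44 genes the brighter array was at or above the 75th percentile of all values, 6.98. Of these 30, HAMP was at least 1.5-fold lower and the other 29 were within 1.5-fold, from -0.44 for CD59 to 0.56 for LBP. HAMP reached 6.98 through the EV array alone. With the floor set there, 192 genes of the array were at least 1.5-fold lower and 16 at least 1.5-fold higher. The number of array genes kept at that floor was not counted, so nothing particular to the group is read from these 30.

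HAMP had 7.89 in the EV array and 4.66 in the miR-130b array. The second value lies below the floor, where residual background compresses a fold, and the array holds 1 HAMP probe set, 220491_at, so no other probe set bears on it. The difference of -3.22 ranked 16 from the bottom among the 13260 measured genes, and MASP1, the next gene of the group, ranked 224. Hepcidin binds the iron exporter ferroportin and removes it from the cell surface. Its gene is switched on by BMP ligands acting through hemojuvelin, BMP receptors and SMAD proteins when iron is plentiful, and by interleukin-6 acting through STAT3 in inflammation.

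Because HAMP stood apart and fibrinogen did not, the 250 bases before their start sites are shown. Capitals mark every match to GTTAAT (part of the HNF1 site), CTGGGAA (the IL-6 response element of acute-phase genes), TTNNGNAAT (C/EBP type), TTCNNNGAA (STAT type) or GGCGCC (the core of the BMP response element), on either strand. GGCGCC was added after the value of HAMP was seen. The sequences are from RefSeq (GRCh38.p14), for HAMP chr19:35282278-35282527 and for FGB chr4:154562730-154562979, both on the plus strand.
HAMP: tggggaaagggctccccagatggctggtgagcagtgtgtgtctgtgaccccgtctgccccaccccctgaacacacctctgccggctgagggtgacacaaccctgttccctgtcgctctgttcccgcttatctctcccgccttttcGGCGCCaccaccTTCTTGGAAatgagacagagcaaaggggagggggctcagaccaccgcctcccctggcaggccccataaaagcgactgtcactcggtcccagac
FGB: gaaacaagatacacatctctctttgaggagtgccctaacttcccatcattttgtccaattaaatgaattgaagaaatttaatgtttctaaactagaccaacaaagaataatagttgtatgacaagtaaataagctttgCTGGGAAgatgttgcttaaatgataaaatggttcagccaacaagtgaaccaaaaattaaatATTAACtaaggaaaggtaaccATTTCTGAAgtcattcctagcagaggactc

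In HAMP the letters GGCGCC began 105 bases before the start site and a STAT-type match, TTCTTGGAA, began 93 bases before it. In FGB the 3 matches were to CTGGGAA at 112, GTTAAT at 51 and TTNNGNAAT at 30 bases before the start. RefSeq's table held promoters for 46 of the 54 listed genes, each searched over 300 bases, to 50 bases past the start. TTCNNNGAA was in 12 of the 46 (26.1%), against 7.66% of all 35116 promoters. TTNNGNAAT was also in 12 (26.1%), against 11%. CTGGGAA was in 11 (23.9%), against 10.8%, GTTAAT in 7 (15.2%), against 6.88%, and GGCGCC in 5 (10.9%), against 19.2%. Each listed gene entered with a single promoter, whereas the 35116 were every promoter held, with any repeats of a gene symbol kept. The shares here and below come from unlike sets and are not read as different. A match is a description of these letters and shows no binding.

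HAMP was shown because it was the lowest gene of the group, so every other gene with a motif had to lie above it. The differences of those genes are given as a description and do not test the motifs. Of the 12 genes with TTCNNNGAA, 9 were measured, with a median of -0.14 and a highest value of 0.06, for FGA. Both GGCGCC and TTCNNNGAA stood in 3 of the 46 promoters, those of HAMP, PROS1 and MASP2, and in 0.766% of all promoters. The arrangement differs, since GGCGCC lies before the start site in HAMP but begins after it in PROS1 and MASP2, at bases 27 and 45 counted from the start site as 1. PROS1 differed by 0.04 and MASP2 by -0.21. The 6 measured genes with GTTAAT ran from -0.23 for PROC to 0.06 for FGA. The 9 measured genes with CTGGGAA ran from -0.32 for F10 to 0.04 for FGG.

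Genes of iron handling and of the signals to HAMP were set beside it. SLC40A1, which encodes ferroportin, had 8.72 in the EV array and 7.63 in the miR-130b array, a difference of -1.09, while its dimmer probe set had 6.55 and 6.61. TFRC, the main transferrin receptor, had 13.06 and 13.13. TFR2, an iron sensor of hepatocytes, had 5.45 and 5.63 in one probe set and 5.22 and 4.26 in the other, so its direction was not settled. The iron sensors HFE and HJV differed by 0.03 and 0.16 in their brightest probe sets, with HJV at the floor. TFRC, TFR2, HFE and HJV are named after their values were seen.

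A further list of 16 hepcidin regulators, made after the value of HAMP was seen, had 15 measured genes, with 2 of them (13.3%) at least 1.5-fold lower and 0 at least 1.5-fold higher, beside 2.68% and 0.294% of the array. The list was chosen after values were seen, so nothing is read from that share. Its median difference was -0.21. BMP2, a ligand that induces hepcidin, had 9.55 in the EV array and 6.82 in the miR-130b array, and its second probe set had 9.20 and 5.97, a difference of -3.23. BMP6, the ligand that rises with iron, had 8.86 and 9.14. Its second measured probe set, below the floor in the EV array, had 4.86 and 5.425, a difference of 0.57. For the BMP receptor gene BMPR2 the brightest probe set gave -0.80 and the 3 other measured ones -0.04 to -0.59. Also on the list, ACVR1 differed by -0.47, ACVR2A by -0.25, NEO1 by 0.27 and ERFE by 0.10 in their brightest probe sets.

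The intracellular BMP genes lay nearer to 0 than BMP2 or the brightest BMPR2 probe set. By their brightest probe sets, SMAD1 and SMAD7 lay further from 0 than BMP6. SMAD1 had differences of -0.56 and 0.00 in its measured probe sets, SMAD5 differed by 0.00 and SMAD4 by -0.21 in their brightest probe sets. Of the genes that BMP signalling induces, SMAD7 had 7.70 in the EV array and 7.29 in the miR-130b array, SMAD6 had 7.78 and 7.53 in its brightest probe set, ID1 had 12.97 and 12.76, and ATOH8 had 5.54 and 5.61. Their differences were -0.41, -0.24, -0.21 and 0.07, and the second measured SMAD6 probe set had 0.10. Whether BMP signalling bears on the value of HAMP was not tested. TMPRSS6, the protease that restrains hemojuvelin, had -0.16 in its brightest probe set and 0.14 in the other measured one.

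On the interleukin-6 side, the receptor gene IL6R had 8.04 in the EV array and 8.49 in the miR-130b array, with 0.40 in its second probe set. The shared receptor subunit IL6ST had differences of -0.25 and -0.37 in its probe sets. STAT3, the transcription factor below them, had differences of -0.19, -0.24 and 0.04 from its brightest to its dimmest measured probe set, and the kinase JAK1 0.03, -0.26 and 0.21. SOCS3, a feedback gene of STAT3, was below the floor. STAT3, JAK1 and SOCS3 are named after their values were seen.

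**Figure D4:**
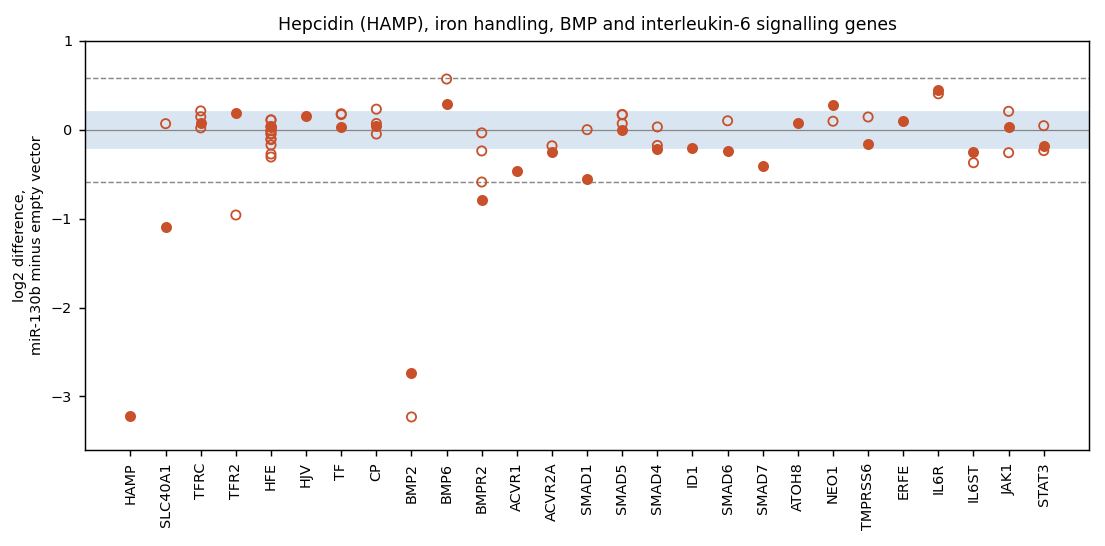
Log2 differences (miR-130b minus EV, 1 array each) of every measured probe set of HAMP, iron handling genes, BMP pathway genes and interleukin-6 pathway genes; filled circles are the probe set that represents the gene, open circles its others, the blue band is 1 SD between probe sets of a gene (0.202) and dashed lines mark 1.5-fold. HAMP at -3.22 and both BMP2 probe sets lie far below the rest, and no filled circle lies above the upper line.

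The other genes of these pathways, outside the group, were taken from 3 lists. Of 85 listed genes, 49 were measured, and 4 of these (8.16%) stood at least 1.5-fold lower and 0 higher, beside 2.68% and 0.294% of the array, with a median of -0.01. The lists were chosen with earlier results known and few genes passed 1.5-fold, so these shares cannot be read as different from the array. In coagulation and fibrinolysis, 1 of 19 measured genes (5.26%) was at least 1.5-fold lower. SERPIND1, which encodes the thrombin inhibitor heparin cofactor II, had 7.21 in the EV array and 5.79 in the miR-130b array. SERPINC1, which encodes antithrombin, had 5.08 and 4.55, a difference of -0.54, but only its EV value reached the floor. SERPINA10, the inhibitor of activated factor X that acts with protein Z, differed by 0.32. GGCX, the vitamin K-dependent carboxylase that matures several clotting factors, had 0.28 in the brightest probe set but -0.39 in the next.

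In complement outside the group, at least 1.5-fold lower were 2 of 14 measured genes (14.29%), and 0 were higher. The shares of the array were 2.68% and 0.294%. With 2 genes on a list chosen with earlier results known, the share of this list is not read as different. C4BPB, which encodes the beta chain of the C4b-binding protein, had 6.81 in the EV array and 5.68 in the miR-130b array. C4BPA, its alpha chain, had 6.06 and 5.57, a difference of -0.49. SERPING1, the inhibitor of C1R, C1S and the MASP proteases, had 9.18 and 8.10. CR1, a receptor for C3b, had 5.13 and 5.54. In the acute-phase list, 1 of 16 measured genes (6.25%), SLC40A1, was at least 1.5-fold lower, beside the same 2.68% of the array. CEBPA, a transcription factor of hepatocytes, differed by -0.26, and no gene of that list was at least 1.5-fold higher.

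Cell identity and RNA quality were read from markers and controls. All 6 hepatocyte markers were measured, and 5 of them were lower with miR-130b, with a median difference of -0.54. ALB had 11.99 in the EV array and 10.96 in the miR-130b array in its brightest probe set, and TTR had 9.26 and 5.92. The other measured ALB probe sets differed by -2.38 and -1.56. AFP, APOA1 and RBP4 differed by -0.57, -0.51 and -0.43, and APOB by 0.04, in their brightest probe sets. Other measured probe sets gave 0.52 for APOB and -0.41 and 0.11 for APOA1. The summed linear level of the 6 markers was 28757 in the EV array and 21770 in the miR-130b array. AFP and APOB, the brightest of them, weigh most in that sum, and levels of different genes are not comparable on arrays. Of 6 leukocyte markers only LYZ was measured, and of 5 endothelial markers PECAM1 and TEK were. Of 7 fibroblast and stellate markers 5 were measured, COL3A1 and LUM not, and the list's summed linear level was 513.9 in the EV array and 285.8 in the miR-130b array. COL1A2, with a difference of -3.08, accounts for nearly all of that fall, which rests on the brightest probe set of each gene. In those probe sets COL1A1, DCN and PDGFRB each differed by -0.08 and THY1 by 0.24. The other measured COL1A1 probe sets differed by 0.38, -0.88 and -1.68, so its direction was not settled. The 3' to 5' ratio of the ACTB control was 1.95 in the EV array and 2.41 in the miR-130b array, and that of GAPDH was 1.37 and 1.52. The part of these differences in the values of HAMP and MASP1 was not tested.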

How the data were processed

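The authors deposited a table of log2 expression values for 54675 probe sets on 2 arrays, 1 per condition. The submitters' processing notes name RMA; its version and settings are not given in the sources used. Residual background in such values compresses folds near the floor, and the number of arrays limits the precision. Groups were taken from the sample titles. Gene symbols came from GEO's annotation of the platform, in which 41091 of 54613 non-control probe sets had 1 symbol. All 53 genes matched RefSeq by Entrez identifier under the same symbol.

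Differences, miR-130b minus empty vector, were computed per probe set and per gene, with 1.5-fold (0.58 on the log2 scale) and 2-fold as rules of size. Genes, lists and motifs were chosen with earlier results of these data known. Every gene of the group could be named, and of each related list up to 4 by absolute difference. As alternatives, the floor was dropped or raised to the 75th percentile, probe sets of a gene were averaged, probe sets ending in _x_at or _s_at were left out, and differences were centred by loess (span 0.3) or on their median. The script was tested on simulated data. Python 3.11.15, pandas 2.3.3, statsmodels 0.14.6 and matplotlib 3.10.9 were used.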

Additional observations from a re-analysis of the deposited data

How the results depend on the processing

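No paired analysis was possible because each condition has 1 array. Under the 6 alternatives, HAMP stayed the lowest gene of the group and 0 genes of the group reached 1.5-fold higher. HAMP had little room to change. Its single probe set does not end in _x_at or _s_at, and its EV value of 7.89 passes the higher floor of 6.98. Its difference was -3.22 in every setting without centring and -3.25 with loess or median centring. Its place under these settings therefore adds no support. With the floor at the 75th percentile, which leaves 30 genes of the group, 1 gene was at least 1.5-fold lower because MASP1 is not kept. Over the whole array 192 genes were then at least 1.5-fold lower, 16 higher and 117 at least 2-fold lower. The number of array genes kept at that floor was not counted, so no share is given and nothing is read from these counts. With the mean of probe sets, 2 genes of the group were at least 2-fold lower, as MASP1 then had -1.09. In that setting 196 of the 13260 measured genes of the array were at least 2-fold lower. With so few genes of the group, these shares cannot be read as different. PLG then had -0.47 and CD59 -0.22. Median centring left 25 genes of the array at least 1.5-fold higher. Without suffixed probe sets CD59 had 0.06 and AMBP 0.17. The group's median lay between -0.04 and 0.01. Values below the floor carry little signal over background.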
